A study of Mus musculus with 4 samples.

Results

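Polycomb repressive complex 2 (PRC2) was followed through 10 genes, *Ezh1*, *Ezh2*, *Eed*, *Suz12*, *Jarid2*, *Mtf2*, *Phf1*, *Phf19*, *Rbbp4* and *Rbbp7*, taken by symbol from the 23420 genes counted in motor neurons (MNs) with and without *Patz1*. All 10 genes were counted, and all 10 were among the 14269 genes with enough reads to be tested. RNA was sequenced from cervical MNs differentiated from wild-type (WT) E14 cells, a line of mouse ESCs (mESCs), and from *Patz1* -/- (*Patz1* KO) cells of the same line, and each genotype had 2 libraries. Both genotypes went through embryoid bodies that received 1 µM all-trans-retinoic acid and 0.5 µM smoothened agonist from day 2, and total RNA was depleted of ribosomal RNA before stranded libraries were made. The study's *Patz1* KO lines were single clones obtained with Cas9, the design text counts 1 KO line beside the WT line, and the labels do not name the clone, so the effects of the genotype and of the clone cannot be told apart. The sample titles name ESCs, while their source and cell type name MNs. The libraries of a genotype were taken as separate differentiations, as the study's methods define a biological replicate.

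PRC2 is the enzyme complex that methylates lysine 27 of histone H3, a mark that keeps developmental genes silent. EZH1 or EZH2 carries the catalytic SET domain, EED and SUZ12 are needed for its activity, and the histone-binding proteins RBBP4 and RBBP7 complete the core. The core is recruited and tuned by accessory subunits, which divide it into PRC2.1, with one of the Polycomb-like proteins MTF2, PHF1 or PHF19, and PRC2.2, with JARID2 and AEBP2. In the developing spinal cord PRC2 is best known for holding the posterior *Hox* genes silent in MNs of anterior levels. PATZ1 is a zinc finger protein that binds G-rich DNA.

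The WT libraries held 14769104 and 15728158 counts, the *Patz1* KO libraries 23881522 and 17402342. *Patz1* itself had 91.5 and 94.3 CPM (library-scaled counts, with edgeR's TMM factors) in WT and 47.6 and 42.6 CPM in *Patz1* KO, so its transcripts were still counted in both KO libraries. Of the 8 MN markers listed, all were tested, and their summed level was 571 to 613 CPM in WT and 846 to 929.6 CPM in *Patz1* KO, while 6 markers of pluripotent cells summed to 6.92 to 8.49 CPM in WT and 5.40 to 6.68 CPM in *Patz1* KO. Markers of other cells were lower in the *Patz1* KO libraries: 7 endoderm markers summed to 32.4 to 37.4 CPM in WT and 5.36 to 6.44 CPM in KO, 6 mesenchyme markers to 97.2 to 114 CPM in WT and 19.9 to 27.3 CPM in KO, and 4 endothelial markers to 8.73 to 10.4 CPM in WT and 3.22 to 4.83 CPM in KO. Of 7 neural progenitor markers 3 were lower and 2 higher at an adjusted p below 0.05 in edgeR's test. Of all genes tested, 23.8% were lower and 24.1% higher in that test. The 7 markers summed to 835 to 862 CPM in WT and 603 to 623 CPM in KO. The 5 glial markers summed to 56.5 to 61.5 CPM in WT and 73.1 to 88.3 CPM in KO. None of these markers was without a count in every library. The part of these cells in the values of the PRC2 genes was not tested, and in bulk RNA fewer cells of a type and less RNA per cell cannot be told apart.

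Of the 10 PRC2 genes, 6 passed edgeR's quasi-likelihood test at an adjusted p below 0.05, 3 of them higher (*Phf19*, *Phf1* and *Rbbp7*) and 3 lower (*Eed*, *Mtf2* and *Rbbp4*) in *Patz1* KO MNs. This has to be read against the background, since 47.9% of all 14269 genes tested were called in the same test, 24.1% higher and 23.8% lower. Both *Patz1* KO libraries lay on one side of both WT libraries for 8 of the 10 PRC2 genes, and the same held for 74.2% of all genes tested. The median absolute log2 fold change was 0.24 over the PRC2 genes and 0.34 over all genes tested. The signed medians were 0.07 over the PRC2 genes and 0.00 over all genes. The fold changes of most PRC2 genes were thus small, and the 2 that exceeded 0.34 in size belonged to *Phf19* and *Phf1*.

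**Figure D1:**
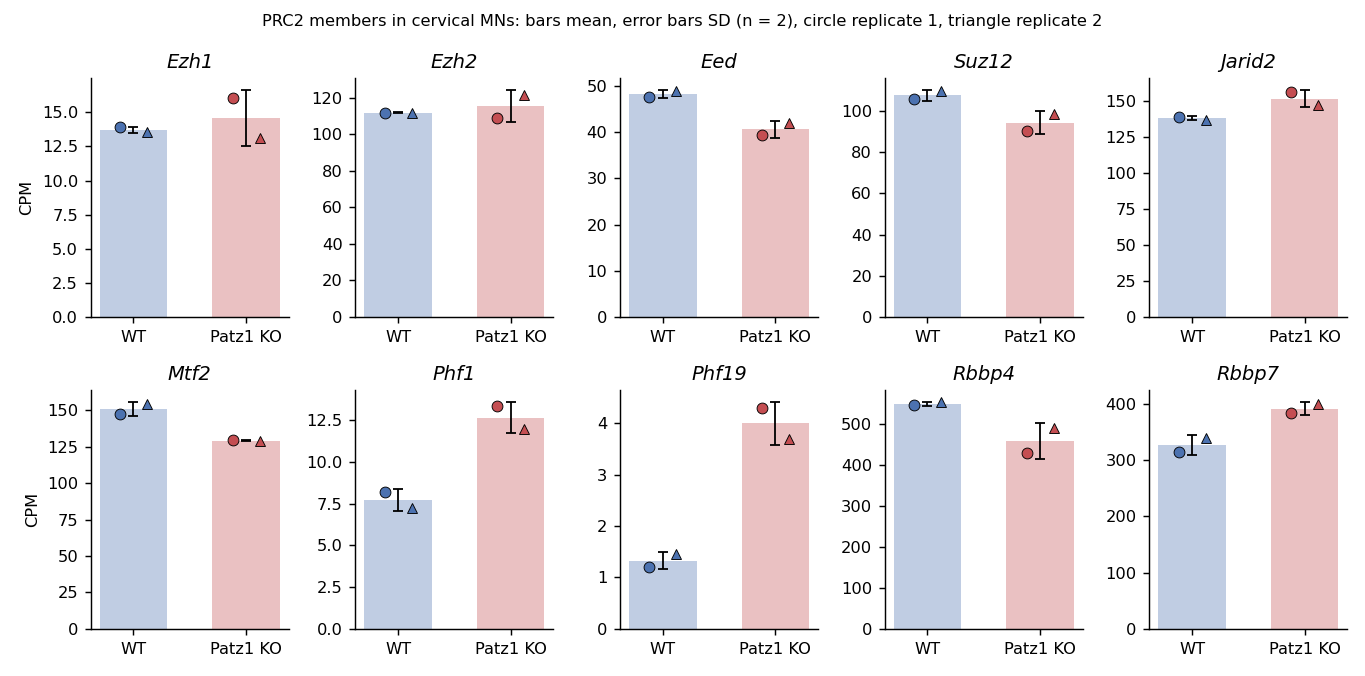
CPM of the 10 PRC2 genes in WT (blue) and *Patz1* KO (red) cervical MNs, 1 panel a gene with its own axis starting at 0. Bars are means, error bars SD (n = 2), circles replicate 1 and triangles replicate 2; *Phf19* and *Phf1* show the widest gaps between genotypes relative to their level, and the libraries of *Ezh1* and *Ezh2* overlap.

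The Polycomb-like genes encode the alternative accessory subunits of PRC2.1, whose Tudor domain reads methylated H3 lysine 36 and whose winged-helix region binds unmethylated CpG-rich DNA. *Phf19*, on chromosome 2 of GRCm38 (mm10) from 34893757 to 34914026 on the minus strand, was the least counted member. It was counted 18 and 23 times in WT and 104 and 62 times in *Patz1* KO, or 1.21 and 1.45 CPM against 4.29 and 3.70 CPM. Both KO libraries were well above both WT libraries. The mean went from 1.33 ± 0.168 to 3.99 ± 0.420 CPM (SD, n = 2 each), and the log2 fold change was 1.59 (SE, its standard error, 0.29; Benjamini-Hochberg adjusted p = 0.000244 in edgeR). No annotated exon of another gene overlaps *Phf19*, and none of its 50-base stretches occurs in a transcript of another gene.

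*Phf1*, on chromosome 17 from 26933052 to 26937908 on the plus strand, was counted 122 and 115 times in WT and 323 and 201 times in *Patz1* KO. These were 8.19 and 7.23 CPM in WT and 13.3 and 11.98 CPM in KO, again without overlap. Its log2 fold change was 0.72 (SE 0.16, adjusted p = 0.00136 in edgeR). The exons of *Phf1* overlap 1370 bases of *Cuta* on the other strand, 28.3% of its 50-base stretches also occur in other genes' transcripts, and the strand setting of the counting is not given in the sources used here. *Cuta* was counted 474 and 442 times in WT and 643 and 523 times in KO, a log2 fold change of -0.05 (adjusted p = 0.744 in edgeR).

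*Mtf2*, on chromosome 5 from 108065674 to 108109004 on the plus strand, was by far the most abundant of the 3 and moved the other way. It had 148 and 154 CPM in WT and 129 and 129 CPM in *Patz1* KO. The KO libraries were both below the WT libraries. The exons of *Mtf2* overlap 395 bases of *Tmed5* on the other strand, and 5.56% of its 50-base stretches also occur in other genes' transcripts. *Tmed5* had a log2 fold change of -0.25 (adjusted p = 0.0978 in edgeR), and its part in the counts of *Mtf2* was not tested. *Mtf2* fell by 0.23 on the log2 scale (SE 0.084, adjusted p = 0.0344 in edgeR). This call was lost without WT replicate 1 (adjusted p = 0.163), without WT replicate 2 (adjusted p = 0.348), with no filter on low counts (adjusted p = 0.0786) and with DESeq2's Wald test (adjusted p = 0.0945).

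Within a library, the shares of the 3 Polycomb-like genes do not depend on how libraries are scaled. On counts per kb of annotated exon, *Mtf2* took 90.9% and 92.0% of their sum in WT and 82.9% and 84.4% in *Patz1* KO. The share of *Phf1* was 8.25% and 7.05% in WT and 14.0% and 12.9% in KO, and that of *Phf19* was 0.842% and 0.975% in WT and 3.11% and 2.74% in KO. For each of the 3 genes the genotypes did not overlap, and *Mtf2* remained the main Polycomb-like transcript in every library. With the longest transcript as the length in place of all exons, the mean share of *Mtf2* was 93.0% in WT and 86.2% in KO, so its size depends on the length used and its direction did not. An exact permutation test of 2 against 2 libraries cannot go below p = 0.33, so no test was made of these shares.

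**Figure D2:**
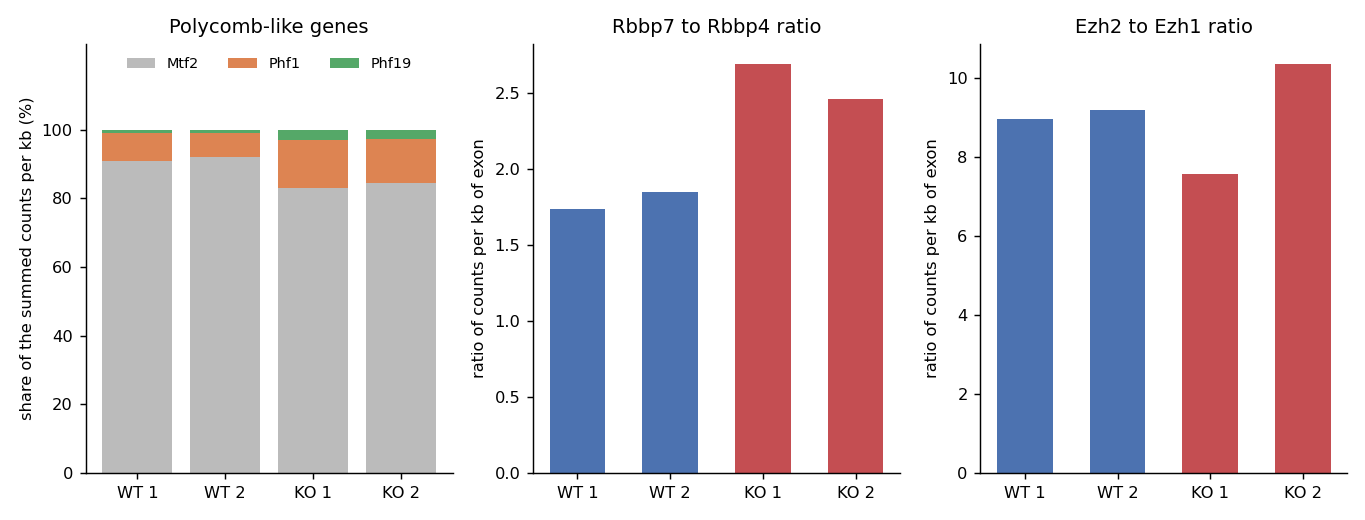
Left, shares of *Mtf2*, *Phf1* and *Phf19* in their summed counts per kb of exon, in percent, for each library; middle and right, the ratios of *Rbbp7* to *Rbbp4* and of *Ezh2* to *Ezh1* on the same scale (blue WT, red *Patz1* KO). *Mtf2* takes a smaller share, and *Phf1* and *Phf19* larger shares, in both KO libraries, *Rbbp7* to *Rbbp4* is higher in both (2.69 and 2.46 against 1.73 and 1.85), and *Ezh2* to *Ezh1* overlaps between the genotypes.

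The catalytic subunits did not pass the test. *Ezh2*, on chromosome 6 from 47530139 to 47595341 on the minus strand and the form typical of dividing cells, had 112 and 112 CPM in WT and 109 and 122 CPM in *Patz1* KO. The WT values lay between the KO values, and the log2 fold change was 0.05 with a 95% interval from -0.14 to 0.23 (adjusted p = 0.699 in edgeR). *Ezh1*, on chromosome 11 from 101191115 to 101226463 on the minus strand, is the form that persists in non-dividing cells. Its libraries had 13.9 and 13.6 CPM in WT and 16.0 and 13.1 CPM in KO. The KO libraries stood on both sides of WT, and the log2 fold change was 0.09 with a 95% interval from -0.21 to 0.40 (adjusted p = 0.615 in edgeR). The sign of *Ezh2* turned without *Patz1* KO replicate 2 (log2 fold change -0.03), and that of *Ezh1* turned without *Patz1* KO replicate 1 (-0.06).

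On counts per kb of exon, *Ezh2* exceeded *Ezh1* by 8.96-fold and 9.18-fold in WT and by 7.58-fold and 10.3-fold in *Patz1* KO. The genotypes overlapped, with means of 9.07 ± 0.156 and 8.96 ± 1.95 (SD, n = 2 each). With the longest transcript as the length the means were 12.3 and 12.1. *Ezh2* was thus the more abundant transcript by either length in all 4 libraries, and its excess over *Ezh1* did not separate the genotypes.

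The other core subunits stayed within a narrow range. *Eed*, whose product binds methylated H3 lysine 27 and stimulates the enzyme, lies on chromosome 7 from 89954654 to 89980983 on the minus strand. It had 47.7 and 48.9 CPM in WT and 39.3 and 41.9 CPM in *Patz1* KO. It fell by 0.25 on the log2 scale (SE 0.097, adjusted p = 0.0396 in edgeR). The call was lost without WT replicate 1 (adjusted p = 0.165), without WT replicate 2 (adjusted p = 0.274), without *Patz1* KO replicate 1 (adjusted p = 0.0941), with no filter on low counts (adjusted p = 0.0819) and with DESeq2's Wald test (adjusted p = 0.165).

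*Suz12*, the scaffold of the core on chromosome 11 from 79993106 to 80034123 on the plus strand, had 106 and 109.6 CPM in WT and 90.4 and 98.4 CPM in *Patz1* KO. The KO values were both below the WT values, but the log2 fold change of -0.19 had an adjusted p of 0.0842 in edgeR's test. Without *Patz1* KO replicate 2 it was -0.25 (adjusted p = 0.0101 in edgeR).

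The histone chaperones diverged. *Rbbp7*, on the X chromosome from 162760402 to 162779092 on the plus strand, had 314 and 339.5 CPM in WT and 382 and 399.6 CPM in *Patz1* KO and rose, with a log2 fold change of 0.26 (SE 0.094, adjusted p = 0.0315 in edgeR). *Rbbp4*, on chromosome 4 from 129307100 to 129335370 on the minus strand, had 545 and 552 CPM in WT and 428 and 489 CPM in KO. It fell by 0.26 on the log2 scale (SE 0.10, adjusted p = 0.0445 in edgeR). Neither gene's libraries overlapped between genotypes, but both calls were lost without WT replicate 1 (adjusted p = 0.371 for *Rbbp7* and 0.234 for *Rbbp4*) and without WT replicate 2 (0.148 and 0.310). That of *Rbbp4* was also lost without *Patz1* KO replicate 1 (adjusted p = 0.0892), and that of *Rbbp7* with library size alone (adjusted p = 0.0736).

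Their ratio within a library is free of the library scaling. *Rbbp7* to *Rbbp4* was 1.73 and 1.85 in WT and 2.69 and 2.46 in *Patz1* KO on counts per kb of exon. The 2 genotypes did not overlap, and the means of 1.79 ± 0.081 and 2.57 ± 0.163 (SD, n = 2 each) differ by 0.52 on the log2 scale. The value of the ratio depends on the length taken, with means of 1.24 and 1.78 for the longest transcripts. Both genes share annotated transcript sequence with others, with either strand counted. Of the 50-base stretches of *Rbbp4*, 17.2% occur in transcripts of 20 other genes. Of those of *Rbbp7*, 11.2% occur in 2 other genes. Shared reads were not examined. The antisense neighbour *Txlng*, which overlaps 174 bases of *Rbbp7*, rose too (log2 fold change 0.55, adjusted p = 0.0005 in edgeR), and *Sync*, opposite *Rbbp4*, was counted 7 and 7 times in WT and 24 and 20 times in KO.

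*Jarid2*, the accessory subunit that recruits PRC2.2 to ubiquitinated chromatin, lies on chromosome 13 from 44729474 to 44921643 on the plus strand. It had 139 and 137 CPM in WT and 156 and 147 CPM in *Patz1* KO. The KO libraries were both above WT, and the log2 fold change of 0.14 did not pass (95% interval from -0.04 to 0.32, adjusted p = 0.198 in edgeR). Without *Patz1* KO replicate 2 it was 0.18 (adjusted p = 0.0421 in edgeR).

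Compared per kb of exon within WT, the order of levels was *Rbbp7* (112 CPM per kb), *Rbbp4* (62.7), *Mtf2* (26.5), *Suz12* (21.8), *Ezh2* (16.8), *Jarid2* (14.2), *Eed* (12.6), *Phf1* (2.21), *Ezh1* (1.85) and *Phf19* (0.264), as means of 2 libraries. The same order held for the means in *Patz1* KO, with *Rbbp7* at 134 CPM per kb and *Phf19* at 0.793, and in neither genotype did the libraries of neighbours in the order overlap. With the longest transcript as the length, *Ezh2* (40.1 CPM per kb in WT) came before *Mtf2* (37.2), *Eed* (23.4) before *Jarid2* (16.5) and, in WT, *Ezh1* (3.27) before *Phf1* (2.46), whereas in *Patz1* KO *Phf1* (4.03) came before *Ezh1* (3.47). The order among those genes therefore depends on the length taken, while *Rbbp7* and *Rbbp4* were the most abundant and *Phf1*, *Ezh1* and *Phf19* the least abundant by both lengths.

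Stretches of the promoters of the members that moved most, and of those that hold a match to an E2F site, are shown here because E2F factors drive S phase genes and PATZ1 binds G-rich DNA; the binding of neither was measured in these files. RefSeq promoter windows on GRCm38, from 250 bases before to 50 bases after each annotated start, were searched on both strands for the E2F spellings TTTCCCGC, TTTCGCGC, TTTGCCGC and TTTGGCGC and for the G-rich spelling GGGGNGGGG, with overlapping matches counted. All 10 PRC2 genes had a window, 12 in all. An E2F spelling was found in 3 of the 12 windows (of *Ezh2*, *Suz12* and *Phf19*) and in 2.3% of all 32851 windows. The G-rich spelling was found in 6 of the 12 (of *Phf19*, *Phf1*, *Mtf2*, *Jarid2*, *Rbbp4* and *Rbbp7*) and in 22.4% of all windows. Each stretch is 30 bases, written 5′ to 3′ on the gene's own strand with the match in capitals; a match on the other strand appears as its complement.
*Phf19*, E2F spelling, chr2:34914166-34914195, minus strand: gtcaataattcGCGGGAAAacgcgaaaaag
*Phf19*, G-rich spelling, the middle of 3 overlapping matches, chr2:34914063-34914092, minus strand: ggcgcccccgCCCCGCCCCgcccccgccga
*Phf1*, G-rich spelling, chr17:26933051-26933080, plus strand: agtggccacgGGGGCGGGGcagctaacgga
*Phf1*, G-rich spelling, chr17:26933079-26933108, plus strand: gatgtggcatGGGGCGGGGcccggccctga
*Ezh2*, E2F spelling, chr6:47595009-47595038, minus strand: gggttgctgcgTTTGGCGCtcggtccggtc
*Suz12*, E2F spelling, chr11:79992876-79992905, plus strand: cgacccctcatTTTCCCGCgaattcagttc
*Phf19* was the one member with both spellings. Of the 3 members with an E2F spelling, *Phf19* rose while *Ezh2* and *Suz12* did not pass the test, and of the 6 with the G-rich spelling, 3 rose, 2 fell and *Jarid2* did not pass. Members called in either direction thus held the G-rich letters, while *Eed*, called lower, and the uncalled *Ezh1*, *Ezh2* and *Suz12* did not.

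Among the genes of 5 other PRC2-associated proteins listed, *Ezhip* had a larger fold change, in size, than any of the 10 PRC2 genes. *Ezhip*, listed under its older symbol *AU022751*, encodes an X-linked inhibitor that blocks the EZH2 active site in the manner of the K27M oncohistone. It was counted 36 and 41 times in WT and 7 and 7 times in *Patz1* KO, or 2.42 and 2.58 CPM against 0.289 and 0.417 CPM. Both KO libraries were far below WT, and *AU022751* fell by 2.84 on the log2 scale (SE 0.42, adjusted p = 2.33e-05 in edgeR). It shares no 50-base stretch with another gene. Its 4 values are low, and the endoderm, mesenchyme and endothelial markers given above were lower in the same libraries; their part in this change was not tested.

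*Epop*, listed as *E130012A19Rik*, encodes a PRC2.1 partner that links the complex to elongin and is best known from ESCs. It had 9.40 and 10.6 CPM in WT and 6.44 and 7.21 CPM in *Patz1* KO. *E130012A19Rik* fell by 0.56 on the log2 scale (adjusted p = 0.0142 in edgeR), and the call was lost with DESeq2's Wald test (adjusted p = 0.0881) and without WT replicate 2 (adjusted p = 0.175). *Lcor* and *Lcorl*, whose loci produce the PALI proteins of PRC2.1, moved apart. Their log2 fold changes were 0.24 (adjusted p = 0.0461 in edgeR) and -0.29 (adjusted p = 0.0218 in edgeR). The exons of *Lcorl* overlap 944 bases of *Ncapg* on the other strand, and the part of this overlap in its counts was not tested. *Aebp2*, the partner of JARID2 in PRC2.2, had 72.4 and 77.7 CPM in WT and 71.9 and 73.4 CPM in KO, and its log2 fold change of -0.05 did not pass (adjusted p = 0.685 in edgeR). The call of *Lcor* was lost with library size alone, with DESeq2's Wald test and without either WT library or *Patz1* KO replicate 1, and that of *Lcorl* with DESeq2's Wald test and without WT replicate 2 or *Patz1* KO replicate 1. In all, 4 of these 5 partners were called, 1 higher and 3 lower, where 47.9% of all genes tested were called, but 1, *AU022751*, with DESeq2's Wald test. Leaving out WT replicate 2 left 1 of the 5 called and leaving out *Patz1* KO replicate 1 left 2.

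Of the enzymes that remove H3 lysine 27 methylation, *Kdm6a* and *Kdm6b* did not pass. *Kdm6a* had 52.7 and 61.0 CPM in WT and 54.7 and 54.0 CPM in *Patz1* KO, and *Kdm6b* had 47.8 and 46.7 CPM in WT and 47.4 and 52.6 CPM in KO. Their log2 fold changes were -0.07 and 0.08, and the libraries of the genotypes overlapped for both. *Uty*, the Y-linked paralog with little demethylase activity, had 15.2 and 17.7 CPM in WT and 4.04 and 3.64 CPM in KO and fell by 2.09 on the log2 scale (adjusted p = 3.88e-08 in edgeR). The Y-linked genes did not fall alike. Of the 5 tested, 4 were lower, where 23.8% of all genes tested were lower in the same test. The log2 fold changes were -2.06 for *Ddx3y*, -1.94 for *Kdm5d* and -0.43 for *Eif2s3y* beside that of *Uty*. *Uba1y* did not pass (-0.12, adjusted p = 0.762 in edgeR). The 4 genes other than *Uty* were named after their values were seen, and the part of the Y chromosome in the value of *Uty* was not tested.

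**Figure D3:**
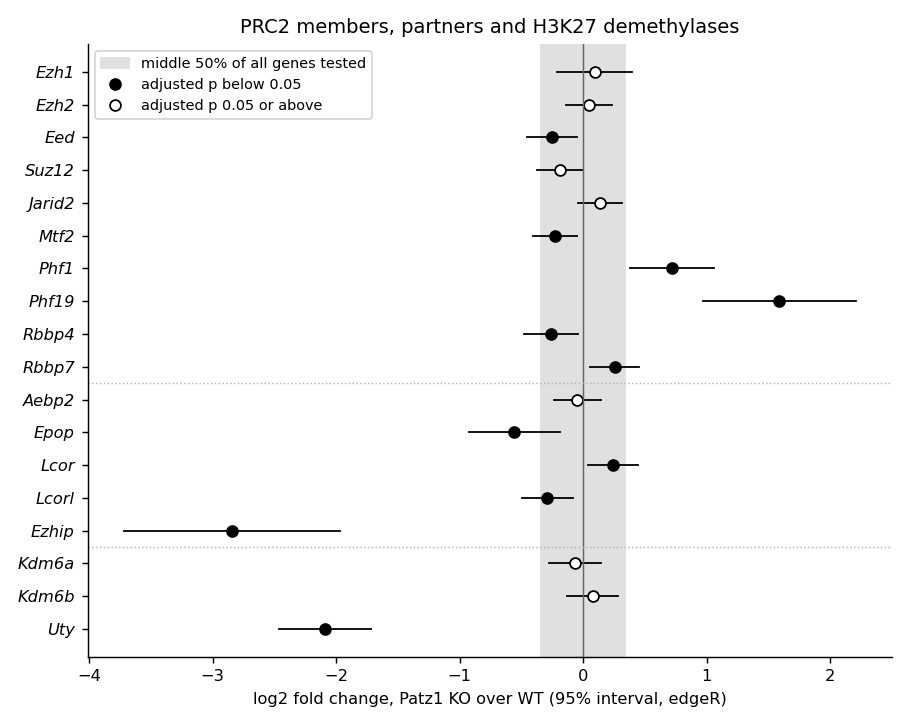
Log2 fold change, *Patz1* KO over WT, of the 10 PRC2 genes, 5 PRC2 partners and 3 H3 lysine 27 demethylases (separated by dotted lines), with 95% intervals from edgeR. Filled points have an adjusted p below 0.05, and the grey band holds the middle 50% of all genes tested (-0.34 to 0.34); of the PRC2 genes, *Phf1* and *Phf19* lie outside it.

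Genes of enzymes that oppose PRC2, and of subunits of their complexes, were mostly lower in *Patz1* KO. Of 16 listed COMPASS subunits and H3 lysine 36 methyltransferases, 10 were lower, 1 (*Men1*) was higher and 5 did not pass, against 23.8% lower and 24.1% higher among all genes tested. Their median log2 fold change was -0.32, and that of all genes was 0.00. *Setd2*, which trimethylates H3 lysine 36, had 190.1 and 203 CPM in WT and 134 and 126 CPM in *Patz1* KO and fell by 0.59 on the log2 scale (adjusted p = 2.30e-05 in edgeR). *Nsd1*, which dimethylates the same residue, fell by 0.64 (adjusted p = 5.48e-05 in edgeR), and *Kmt2a*, the Trithorax-type methyltransferase listed as *Mll1*, fell by 0.51 (adjusted p = 0.000145 in edgeR). The number called was 7 without WT replicate 1 and 6 without WT replicate 2. The fold changes of PRC2 genes and of this list were not tested against each other.

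*Rbbp4* and *Rbbp7* are shared with other chromatin complexes, and of 25 listed subunits of NuRD, SIN3, CAF-1, HAT1, NURF and MuvB, 13 were lower, 4 (*Chd3*, *Mta3*, *Sin3b* and *Sap30*) were higher and 8 did not pass, with a median log2 fold change of -0.31. Of all genes tested, 47.9% were called, 23.8% lower and 24.1% higher. The smallest p values belonged to partners of RBBP4 and RBBP7 in histone deposition. *Chaf1a*, the large subunit of the replication-coupled chaperone CAF-1, had 63.0 and 69.1 CPM in WT and 34.1 and 32.7 CPM in *Patz1* KO. It fell by 0.98 on the log2 scale (adjusted p = 3.08e-07 in edgeR). Of its 8854 exon bases, 4648 overlap *Ubxn6* on the other strand, and the strand setting of the counting is not given. *Chaf1b*, the middle subunit of CAF-1, fell by 0.95 (adjusted p = 6.32e-07 in edgeR), and *Hat1*, which acetylates new histone H4 with RBBP7, fell by 0.81 (adjusted p = 2.50e-06 in edgeR). Without WT replicate 2 the number called was 11.

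*Ezh2* is the form typical of dividing cells, so genes of S phase and mitosis were set beside the PRC2 genes. Of 21 such genes 18 were lower and 3 did not pass, with a median log2 fold change of -0.82, where 23.8% of all genes tested were lower, and a summed level of 3339 to 3475 CPM in WT and 1911 to 1916 CPM in *Patz1* KO. *Tyms*, which makes thymidylate, had 57.7 and 62.6 CPM in WT and 17.8 and 17.1 CPM in KO and fell by 1.78 on the log2 scale (adjusted p = 3.71e-10 in edgeR). The replicative helicase subunits *Mcm4* and *Mcm7* fell by 1.27 (adjusted p = 2.26e-09 in edgeR) and 1.10 (adjusted p = 1.48e-08 in edgeR). These 3 were named for the smallest p values of the list, in which log2 fold changes went from -1.78 to 0.17. The relation of the PRC2 genes to the number of dividing cells was not tested.

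Of 10 neuronal genes 5 were higher and 2 lower, against 24.1% and 23.8% of all genes tested, and their summed level was 4371 to 4666 CPM in WT and 6017 to 6322 CPM in *Patz1* KO. *Dcx*, a microtubule protein of young neurons, had 834 and 827 CPM in WT and 1635 and 1718 CPM in KO and rose, with a log2 fold change of 1.01 (adjusted p = 1.17e-06 in edgeR). *Rbfox3*, the NeuN antigen, rose as well (log2 fold change 0.89, adjusted p = 4.95e-05 in edgeR), while *Nefm*, a neurofilament subunit, fell by 2.29 on the log2 scale (adjusted p = 2.49e-11 in edgeR). Of the 8 MN markers 7 were higher, to be read against the same 24.1%. Without WT replicate 2 the number of neuronal genes called was 4.

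**Figure D4:**
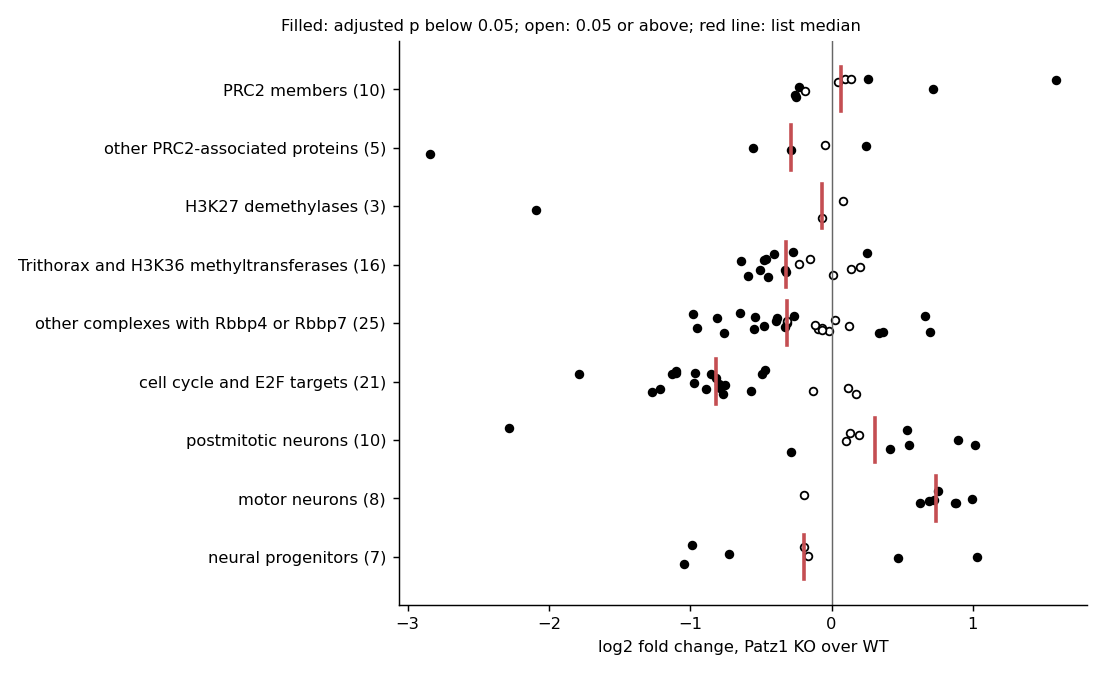
Log2 fold change, *Patz1* KO over WT, of each tested gene in 9 lists, with the number tested in brackets; filled points have an adjusted p below 0.05 in edgeR's test, open points do not, and the red line is the list's median. The PRC2 genes centre near 0 (median 0.07), the cell cycle genes lie mostly below (-0.82) and the motor neuron genes mostly above (0.74).

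Of the posterior *Hox* genes, classic PRC2 targets, 3 of the 16 genes of groups 9 to 13 passed the filter on low counts, and 6 were not counted in any library. *Hoxd9* was counted 8 and 7 times in WT and 61 and 50 times in *Patz1* KO and rose, with a log2 fold change of 2.47 (adjusted p = 5.52e-05 in edgeR). *Hoxc9* was counted 5 and 10 times in WT and 24 and 15 times in KO and did not pass (log2 fold change 0.95, adjusted p = 0.116 in edgeR). *Hoxa9*, counted 1 and 0 times in WT and 20 and 10 times in KO, did not pass the filter and was not tested. *Hoxb9*, the remaining gene tested, was well expressed in both genotypes, with 90.2 and 95.6 CPM in WT and 109.4 and 99.6 CPM in KO, and did not pass (log2 fold change 0.17, adjusted p = 0.126 in edgeR); it was named after its values were seen. These counts stand beside core subunits whose estimated log2 fold changes were no larger than 0.26 in size. Their 95% intervals reached -0.475 for *Rbbp4* and 0.456 for *Rbbp7*. The accessory genes *Phf19* (1.59) and *Phf1* (0.72) changed more. The methylation of H3 lysine 27 was not measured in these files, and the part of PRC2 in the *Hox* counts was not tested.

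**Figure D5:**
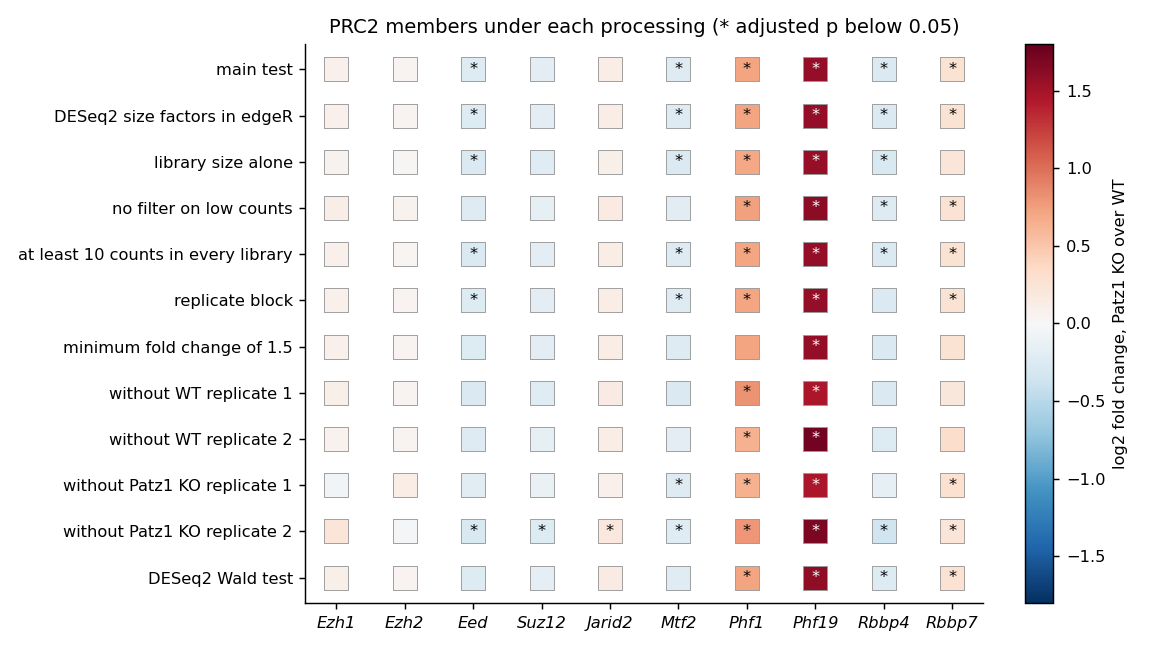
Log2 fold change of the 10 PRC2 genes (columns, colour) under the main test and each alternative processing (lines), with an asterisk where the adjusted p is below 0.05. *Phf19* is called in all, *Phf1* in all but the test for at least a 1.5-fold change, and the calls of *Eed*, *Mtf2*, *Rbbp4* and *Rbbp7* come and go.

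The calls of *Phf19* and *Phf1* were the stable ones over the 11 alternative processings. *Phf19* was called in all 11, with log2 fold changes from 1.47 to 1.73 and adjusted p values up to 0.00451. *Phf1* was called in 10, with log2 fold changes from 0.64 to 0.81, and missed when a change of at least 1.5-fold was required (adjusted p = 0.36 in edgeR). *Rbbp7* was called in 7, *Rbbp4* and *Mtf2* in 6 and *Eed* in 5, each with its sign kept, and *Ezh1* and *Ezh2* in none.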

How the data were processed

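The deposited values are raw read counts per gene symbol, 1 library a file. Per the study's methods, the authors mapped reads to mm10 with Bowtie 2, and the submitters' processing notes list TopHat2 2.1.1, Bowtie2 2.3.1, featureCounts 1.6.2 and DESeq2, without roles. The annotation and strand setting of the counting are not given in the sources used here. Groups were taken from the labels.

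Counts were normalized with TMM, filtered with filterByExpr (minimum count 10) and tested with edgeR 4.0.16 (limma 3.58.1, R 4.3.3) by the quasi-likelihood test, with genotype alone in the model and Benjamini-Hochberg adjustment over all 14269 genes tested. The threshold was 0.05. Standard errors (SE) were derived from each gene's log2 fold change and the square root of its F statistic, and 95% intervals from them with the degrees of freedom of the fit. All fold changes are *Patz1* KO over WT. The common biological coefficient of variation was 7.71%. With 2 libraries a group, p values set each change against the spread between these libraries, estimated with information from all genes tested. Total counts went from 14769104 to 23881522. Genes with few counts, such as *Phf19*, are the least precise.

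Alternatives were DESeq2 size factors, library size alone, no filter, a filter of 10 counts per library, a block for the replicate number, a minimum 1.5-fold change (glmTreat), DESeq2's Wald test (1.42.0) and leaving out each library, where the lone library is assumed to vary like the other group. The code was tested on simulated data. Gene positions, exon overlaps and exon lengths came from GENCODE M21 and promoters from RefSeq, both on GRCm38; tables and plots were made in Python 3.11.15 with pandas 2.3.3 and matplotlib 3.10.9.

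The PRC2 genes and the gene lists were chosen with earlier results of these data known. Named were the PRC2 genes, *Patz1*, the PRC2 partners, the demethylases, and *Hoxa9*, *Hoxc9* and *Hoxd9*. The genes with the 3 smallest p values of each of 4 further lists were named too. Genes overlapping a member, the few higher genes of a list, *Hoxb9* and 4 Y-linked genes were added after their values were seen. *Ubxn6* and *Ncapg* were named for their exon overlap alone. The other data of the study were not analysed here.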

Additional observations from a re-analysis of the deposited data

How the results depend on the processing

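With a minimum 1.5-fold change the number called was 1 of the PRC2 genes (*Phf19*), 1 of their partners, 3 of the subunits sharing *Rbbp4* or *Rbbp7*, 3 of the neuronal genes and 0 of the COMPASS and H3 lysine 36 genes (edgeR's glmTreat, which gave 0 at an unadjusted p below 0.05; DESeq2's Wald test called 8). DESeq2's Wald test called 1 of the partners. Leaving out each library in turn called 2 to 8 PRC2 genes, 1 to 4 partners, 6 to 12 COMPASS and H3 lysine 36 genes, 11 to 17 of the subunits sharing *Rbbp4* or *Rbbp7* and 4 to 9 neuronal genes. The sign turned for 4 genes that were not called, *Ezh1* (log2 fold changes from -0.0627, without *Patz1* KO replicate 1, to 0.23 over the 4 left-out libraries), *Ezh2* (from -0.0283, without *Patz1* KO replicate 2, to 0.127), *Aebp2* (from -0.0976 to 0.00957, without WT replicate 2) and *Kdm6a* (from -0.166 to 0.0503, without WT replicate 2). The cause was not tested. The share of all genes called is given for the main test alone. Counts called under an alternative, here and above, therefore cannot be set against all genes.

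The deviations of same-numbered libraries from their group means had a correlation near 0 (r = 0.0485 across genes). With 2 libraries a group this is a single correlation, which cannot decide whether the numbers pair the libraries. With the replicate block 5 PRC2 genes were called, and the one lost was *Rbbp4* (adjusted p = 0.0501 in edgeR); for the other lists the count stayed within 1.5 times.

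Of 250 values of the other named genes under an alternative, 232 kept direction and side of the threshold, 16 lost the call and 2 changed sign. With 2 libraries a group, the calls of the small changes of *Eed*, *Mtf2*, *Rbbp4* and *Rbbp7* were lost on leaving out either WT library. Low counts limit *Phf19*, *AU022751* and the *Hox* genes most, and intervals rest on the spread between these libraries only, estimated with information from all genes tested.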
